A study of Salmo salar with 72 samples.

Results

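The genes described here are the 200 that varied most between fish of the same diet in the distal intestine (DI), the hindmost gut segment, of Atlantic salmon. They were chosen by their spread in the DI: expression was written as log2(CPM + 0.5), where CPM is the count of a gene per 1000000 counted fragments of its library, the mean of each diet was subtracted, and the genes with the largest standard deviation (SD) of these residuals over 35 DI libraries were kept. A gene could enter with a mean of at least 5 CPM in the DI and at least 1 FM library under 20 CPM, which 13280 of the 69389 genes in the tables did. The library of ICJ replicate 4 was left out of this choice. Since the values that chose the genes are the DI values themselves, their DI spread and their grouping in the DI are given below as a description, without a test.

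The study sequenced RNA from both tissues, DI and spleen, of 36 salmon fed for 42 days, with 6 salmon on each diet. According to the methods, the salinity of their water was raised gradually to that of seawater early in this time. The SBM diet contained 30% soybean meal. The ICJ and ACJ diets held the same soybean meal with inactivated or autolyzed *Cyberlindnera jadinii* yeast, the IWA and AWA diets held it with inactivated or autolyzed *Wickerhamomyces anomalus* yeast, and FM was the fishmeal diet without soybean. Tanks received the diets, with 3 tanks per diet and 2 fish sampled from each, but the labels do not give the tank of a fish, so that p-values treat fish as independent. The total count per library was 6976621 to 30857656 fragments in the DI and 15062129 to 35187924 in the spleen. Marker genes went with the labels: the summed level of the distal enterocyte list (lrp2a, lrp2b, cubn and slc10a2) was 941 to 8941 CPM in DI libraries and 5.52 to 111 CPM in spleen libraries, and that of the erythrocyte list was 3.49 to 94.7 CPM in the DI and 1227 to 3440 CPM in the spleen. No pair of libraries held identical counts (0 pairs). In bulk tissue, fewer cells of a type and less RNA per cell cannot be told apart.

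A piece of intestine holds absorptive enterocytes, goblet cells, muscle, nerves and immune cells, and genes confined to one of these differ between pieces that hold unequal amounts of them. Along the gut, enterocytes of the anterior part absorb peptides, sugars and lipids, while those of the distal part take up whole proteins with the endocytic receptors megalin and cubilin. Hox genes of the posterior classes mark the rear of the body axis. In salmonids the exocrine pancreas is not a compact organ but lies scattered in the fat around the gut and near the spleen. Lymphocytes carry receptors assembled from V and C segments, and each fish uses its own mixture of them.

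The SD of the 200 genes lay between 1.69 and 4.12 on the log2 scale, with a median of 2.02, whereas the median over all 13280 eligible genes was 0.348. At the limit, ENSSSAG00000054075, ENSSSAG00000109113 and ENSSSAG00000095645 were just inside with SDs of 1.70, 1.69 and 1.69, and LOC123723770, LOC106606375 and ENSSSAG00000105517 just outside with 1.69, 1.69 and 1.68. Symbols were rare: 27 of them (13.5%) were paired with a symbol that is no LOC number, against 26.2% of the eligible genes. Unplaced scaffolds held 21 of them (10.5%, against 2.46% of the eligible genes), and 25 lay within 100 kb of an annotated V or C segment (12.5%, against 0.459%). Of the libraries, SBM replicate 5 contributed the largest part of the summed squared residuals of the 200 genes, 6.40%, and was the most deviant library for 43 of them. Over all eligible genes its part was 3.29%, and the largest was that of IWA replicate 5 with 6.66%.

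The 200 genes fell into groups that rose and fell together from fish to fish. Average linkage on 1 minus the Pearson correlation of the DI residuals, cut at 0.5, gave 6 groups of 5 or more genes, which held 154 of the 200. They are numbered by size below, and the level of a group is the geometric mean CPM of its genes in a library, taken over CPM + 0.5 with the 0.5 subtracted afterwards. The other 46 genes joined no group of that size.

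**Figure D1:**
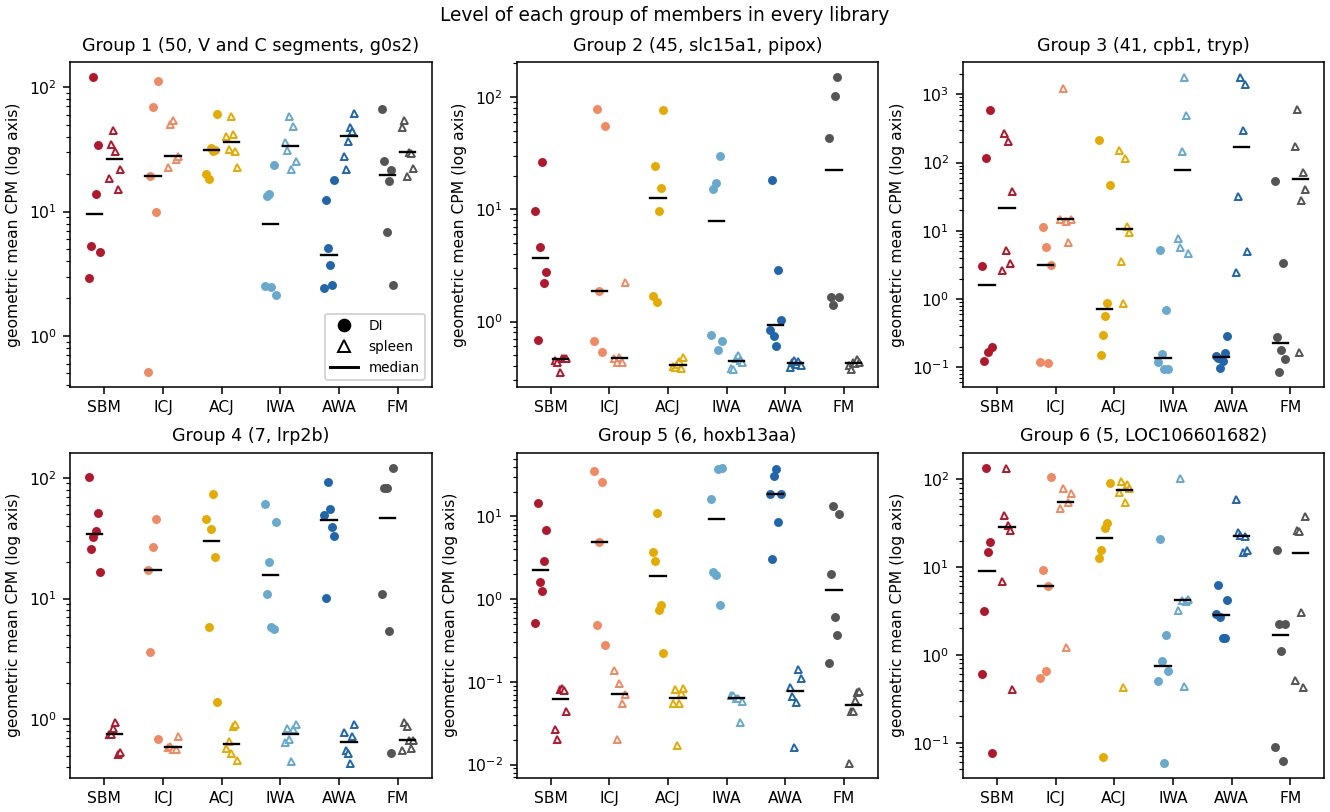
Geometric mean CPM (log axis) of the genes of each group in every library, by diet, with filled circles for the DI, open triangles for the spleen and black lines for the median of a diet (6 fish, 5 for ICJ). Every panel spans a wide range in the DI, over all diets from 0.0850 to 584 CPM in group 3. Within a diet, group 3 spans 0.122 to 584 CPM in SBM and 0.0989 to 0.285 CPM in AWA. Groups 2, 4 and 5 sit at 2.25 CPM or less in every spleen library.

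Group 3 comprised 41 genes and had the widest range of levels. It contained genes for the digestive enzymes that the exocrine pancreas secretes: tryp (trypsin), ctrb and ctrl (chymotrypsins), ela2l (elastase), and cpb1, cbpa1 and cbpa2 (carboxypeptidases). Of the 9 genes matched by an exocrine pancreas list, 8 were in it. The 9th, prss59, stayed outside, and its residuals correlated with those of the group with a Pearson r of 0.05 (Spearman rho = 0.04, 35 libraries). The median correlation between 2 genes of the group was 0.978, the closest of any group.

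In the DI, cpb1 ranged between 0 and 1407 CPM with a median of 0.143 CPM, and in the spleen between 0.124 and 4610 CPM with a median of 67.0 CPM. tryp had a lowest value of 0, a median of 0.130 and a highest of 1064 CPM in the DI, against 0, 50.1 and 2809 CPM in the spleen. Most DI libraries were near 0 and a few were very high: cpb1 was under 1 CPM in 24 of 36 and at 5 CPM or more in 11. The highest DI level of the group was 584 CPM, in SBM replicate 5, followed by ACJ replicate 1 with 218 CPM, SBM replicate 3 with 119 CPM, FM replicate 1 with 53.5 CPM and ACJ replicate 6 with 47.3 CPM. In the 6 AWA fish it stayed between 0.0989 and 0.285 CPM, and the median SD of its genes was 0.192 there, against 2.73 in the 6 FM fish.

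All 41 genes of group 3 had a higher mean in the spleen than in the DI. The median over the genes of their mean level was 35.2 CPM in the DI and 291 CPM in the spleen. The fish with the highest level in one tissue was low in the other. SBM replicate 5, at 584 CPM in the DI, had 3.40 CPM in the spleen. AWA replicate 3, with the highest spleen level of 1798 CPM, had 0.0989 CPM in the DI, where all AWA fish were low. Other fish were high in both tissues: ACJ replicate 1 had 218 CPM in the DI and 154 CPM in the spleen, and FM replicate 1 had 53.5 and 173 CPM. Across the 35 fish, the group means of the residuals in the DI and the spleen correlated with a Pearson r of 0.01 (rho = -0.01).

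Group 2 comprised 45 genes. Among them were slc15a1, which encodes the peptide transporter PepT1 of the absorptive enterocyte, apoa2 (an apolipoprotein), slc26a6.2 (an anion exchanger), pipox (a peroxisomal oxidase), mao (a monoamine oxidase) and elovl2 (a fatty acid elongase). The genes of this group correlated with a median of 0.881. In the DI, slc15a1 ranged between 0 and 279 CPM with a median of 0.509 CPM, and 20 of 36 fish were under 1 CPM while 15 were at 5 CPM or more. For pipox the lowest, median and highest DI values were 0, 1.08 and 86.5 CPM, and for fam151a 0, 3.97 and 240.0 CPM. FM replicate 5 was highest for slc15a1, pipox, fam151a and mao. LOC106565093 had the highest single value of the group, 7411 CPM in the same library, while its median over the 36 fish was 0.261 CPM.

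The level of group 2 was 0.682 to 26.5 CPM in the SBM fish, 0.532 to 78.1 CPM in the ICJ fish, 1.503 to 77.1 CPM in the ACJ fish, 0.553 to 29.7 CPM in the IWA fish, 0.609 to 18.4 CPM in the AWA fish and 1.42 to 151 CPM in the FM fish. Low and high fish thus occurred on each of the 6 diets, and the ranges overlapped. The spleen had little of these genes: 33 of the 45 averaged under 1 CPM there. By the table headers, the authors counted the DI libraries of FM replicates 3, 4 and 5 in a separate folder. Their group 2 levels were 1.42, 102 and 151 CPM, against 43.0, 1.67 and 1.66 CPM in FM replicates 1, 2 and 6, and the part of the folder in the result was not tested.

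The residuals of groups 4 and 5 ran opposite to those of group 2. Group 5 (6 genes) held hoxb13aa and hoxc12ab, transcription factors of the posterior body, with LOC106565393, a purine nucleoside phosphorylase-like gene, and LOC106569065, a laminin gamma-2-like gene. hoxb13aa was under 1 CPM in 27 of 36 DI libraries and reached 87.1 CPM in FM replicate 6, and hoxc12ab ranged between 0 and 41.3 CPM. Group 4 (7 genes) held lrp2b, which encodes a megalin and ranged between 2.24 and 3457 CPM with a median of 725 CPM. Over the 35 libraries, the residuals of group 2 and group 5 correlated with a Pearson r of -0.90 (rho = -0.89), and those of group 2 and group 4 with -0.76 (rho = -0.77).

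Marker genes outside the 200 went along with these groups. The mean residual of 6 other genes of the proximal enterocyte list correlated with group 2 with r = 0.94 (rho = 0.93), and that of 12 other posterior Hox genes with r = -0.92 (rho = -0.92). For group 5, the correlation with these 12 Hox genes was 0.92 (rho = 0.91) and that with the proximal enterocyte genes -0.82 (rho = -0.83). For group 4, they were 0.70 (rho = 0.69) and -0.70 (rho = -0.66). The 3 other distal enterocyte genes followed group 2 little (r = 0.04, rho = 0.09). With group 4, which holds lrp2b, they correlated weakly as well (r = 0.22, rho = 0.11), and with group 5 the values were r = -0.23 and rho = -0.31. Leaving out the 2 libraries farthest from the median changed the correlation of group 2 with the proximal list to 0.94 and with the Hox list to -0.92. The points of these correlations share their library, their depth and their scaling, so that the values describe the libraries only. The log10 number of fragments correlated with group 2 with r = -0.37 and with group 5 with r = 0.42, and its part was not tested. Whether the pieces of intestine came from unequal positions is not recorded in the labels, and was not tested.

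**Figure D2:**
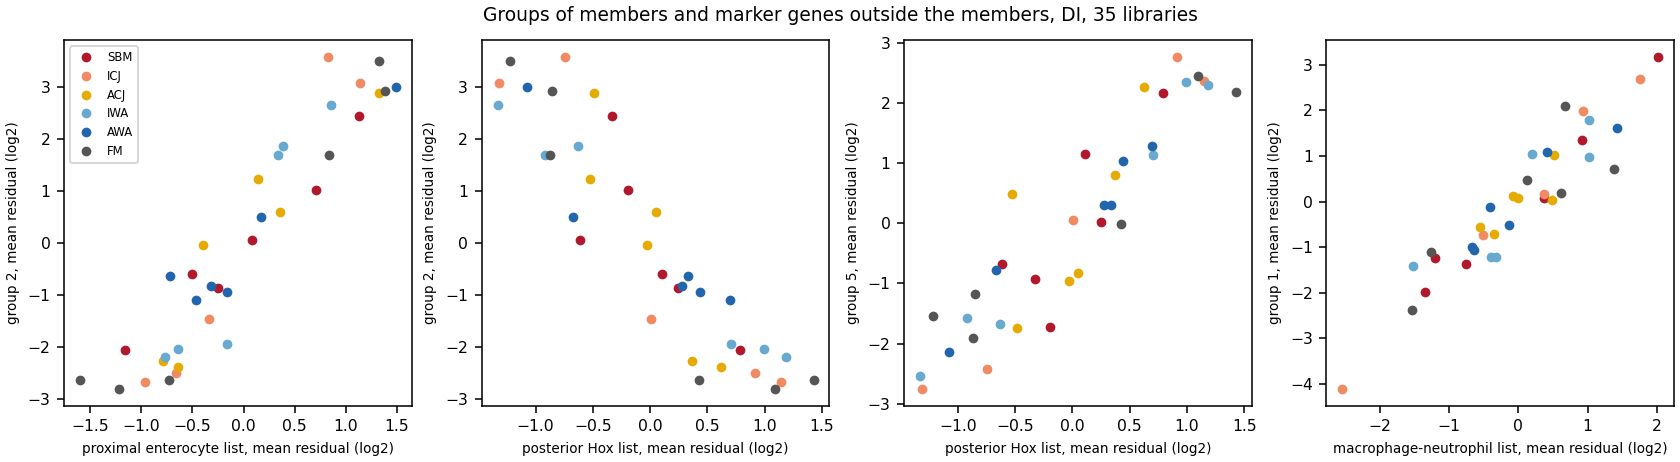
Mean residual of a group of members (vertical axis, log2 scale) against the mean residual of marker genes outside the 200 (horizontal axis, log2 scale) in 35 DI libraries coloured by diet. Group 2 rises with the proximal enterocyte list (r = 0.94) and falls with the posterior Hox list (r = -0.92), group 5 rises with the Hox list (r = 0.92), and group 1 rises with the macrophage and neutrophil list (r = 0.94).

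Group 1 was the largest, with 50 genes. Annotated V or C segments made up 5 of them, and 21 lay within 100 kb of one (42%), on several chromosomes. LOC106609541 (chromosome 7, 49916233 to 49917741) and LOC106597302 (chromosome 7, 46726142 to 46728196) are C regions, LOC106574478 and LOC123743786 are V segments, g0s2 encodes an inhibitor of lipid breakdown, and LOC106604697 is a matrix metalloproteinase-17-like gene. A stricter cut of 0.4 split the group into 32 genes, 20 of them near a segment, and 11 others with g0s2 and ret7, none of them near one (0 of 11). Genes of this kind have near-identical copies, and fragments that fit several places were not counted, so the level of one copy is uncertain.

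The level of group 1 ranged between 0.512 and 121 CPM in the DI, and between 15.3 and 62.1 CPM in the spleen. Over the 35 libraries it was highest in the DI of SBM replicate 3 (121 CPM) and ICJ replicate 6 (112 CPM) and lowest in that of ICJ replicate 1 (0.512 CPM). ICJ replicate 4, which the choice left out, had 118 CPM of group 1 in the DI and 0.422 CPM of group 2, below the other 35 libraries. SBM fish had 2.93 to 121 CPM, ACJ fish 18.2 to 61.0 CPM, IWA fish 2.13 to 23.6 CPM, AWA fish 2.43 to 18.1 CPM and FM fish 2.55 to 67.1 CPM. The ranges of ACJ and AWA stopped just short of each other, and those of all other pairs of diets overlapped. Outside the 200 genes, 9 other V and C segments followed the group (r = 0.95, rho = 0.92), as did 7 macrophage and neutrophil genes (r = 0.94, rho = 0.93) and cd79b of B cells (r = 0.92, rho = 0.89), while 2 T-cell genes followed less closely (r = 0.66, rho = 0.54). The summed level of the whole macrophage and neutrophil list (8 genes, marco at 0 in the DI) was 344 to 27245 CPM in the DI and 8756 to 38047 CPM in the spleen. Group 1 also ran opposite to the 12 posterior Hox genes outside the 200 (r = -0.64, rho = -0.67) and to group 5 (r = -0.65, rho = -0.67). It correlated with group 2 with r = 0.50 (rho = 0.54) and with group 3 with r = 0.53 (rho = 0.61). With the log10 number of fragments it correlated with r = -0.37 (rho = -0.44). The part of immune cells and that of depth in these values were not tested.

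The spleen of the same fish, which the choice of the genes did not use, was then compared. In the spleen the median SD of the 200 genes was 0.991, against 0.221 for all eligible genes. For each gene with a mean of at least 1 CPM in both tissues, the residuals of the DI and the spleen were correlated over 35 fish and tested by permuting fish within diets, with p-values adjusted over all 24601 genes. Of the 140 members that passed this limit, 51 were called (36.4%), 50 of them with a positive correlation, while the share called among all genes tested was 4.24%. A gene with a large spread stands out more easily from counting noise, which this comparison of shares does not take away. The other 60 members averaged under 1 CPM in the spleen and were not tested.

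**Figure D3:**
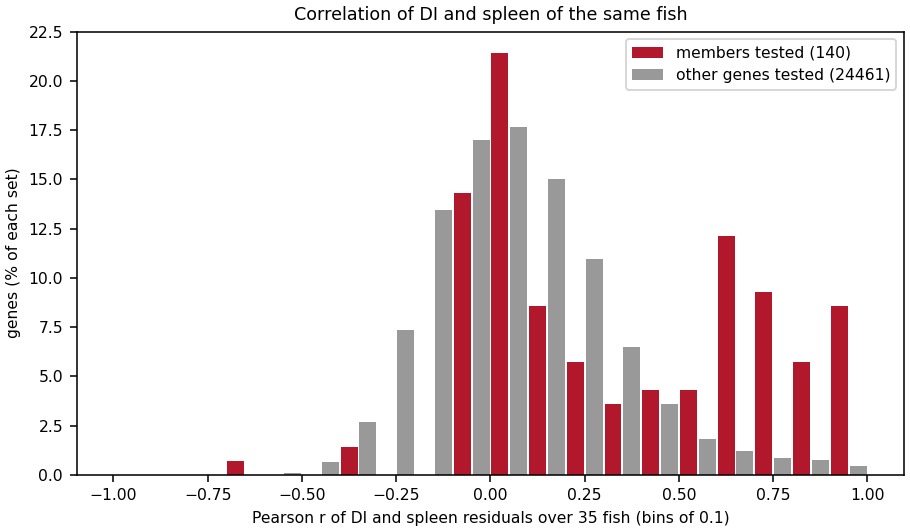
Distribution of the Pearson correlation between the DI and the spleen of the same fish (horizontal axis, bins of 0.1) for the 140 members tested (red) and the other genes tested (grey), each as a percentage of its set (vertical axis). The other genes form a single hump near 0, whereas the members have a hump near 0 and another between 0.6 and 1, with 20 members above 0.8.

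The groups differed in this count. In group 1, 23 of 50 genes were called with a median r of 0.54, in group 2 none of 12 tested (0 called, median r = 0.06), in group 3 none of 41 (0 called, median r = 0.01), and in group 6 all 5 (median r = 0.82). In group 2, LOC106565093 and ENSSSAG00000007448 passed the limit of 1 CPM only through the spleen of ICJ replicate 6, with 36.6 and 35.6 CPM. Their other spleen libraries were at 0.3332 CPM or less. Within group 1, 16 of the 32 genes rich in segments were called and none of the 11 with g0s2 and ret7 (0 called). In group 3, cpb1 had an r of 0.01 (rho = -0.01) and tryp of 0.03 (rho = 0.03). Among the 46 genes of no group, 22 of 30 tested were called (73.3%), of which 1 was negative: ENSSSAG00000085416 with r = -0.65 (rho = -0.60, adjusted p = 0.00339 by permutation). These differences between the groups were not tested.

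Group 6 comprised the V segment LOC106601682 (chromosome 3, 75929675 to 75930046) and 4 further genes, 3 of them on chromosome 3 as well. LOC106601682 was under 1 CPM in 21 of 36 DI libraries and reached 245 CPM in SBM replicate 3. In the spleen it was under 1 CPM in 12 libraries, each of them at 0, and its highest value was 138 CPM, in IWA replicate 2. Every one of the 12 fish at 0 in the spleen was also under 1 CPM in the DI. Its residuals in the 2 tissues correlated with r = 0.83 (rho = 0.77, adjusted p = 0.000653 by permutation over 35 fish).

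The closest agreement between the tissues came from genes of no group that were low in some fish and high in others. The gene with the largest spread of all, ENSSSAG00000116104, on an unplaced scaffold, was at 0 in the DI of 25 fish and between 175 and 926 CPM in the other 11. The same 25 fish had 0.0510 CPM or less in the spleen, and the same 11 fish had 255 to 430 CPM. High fish occurred on the SBM (2), ICJ (2), ACJ (2), AWA (2) and FM (3) diets and on IWA not (0 of 6). A count of 0 in these libraries allows up to 3 counts, that is 0.0972 to 0.430 CPM depending on depth, by counting error only. It does not show that a gene was silent, since fragments that fit several places were not counted. The cause of the low state was not tested.

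Likewise, abcb3 (chromosome 27, 10536644 to 10543577) was high in some fish only. It is an ATP-binding cassette gene of the transporter that carries antigen peptides to MHC class I molecules. In the DI it was at 0.0529 CPM or less in 14 fish and between 7.08 and 28.5 CPM in 22. In the spleen the same 14 fish had 0.0720 CPM or less and the same 22 had 17.5 to 50.4 CPM. All 6 FM fish were among the 22, beside 3 SBM, 3 ICJ, 3 ACJ, 4 IWA and 3 AWA fish. The correlation between the tissues was 0.993 (rho = 0.961, adjusted p = 0.000653 by permutation over 35 fish). Of the 8 other genes within 100 kb with at least 1 CPM in the DI, LOC123730958 had residuals that followed those of abcb3 most closely (r = 0.997).

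ENSSSAG00000073387 (chromosome 22) was at 0.0553 CPM or less in the DI of 14 fish and between 9.25 and 20.7 CPM in 22, and all 36 fish were in the same state in the spleen. ENSSSAG00000095775 (chromosome 4) was at 0 in both tissues of 23 fish and between 10.5 and 58.9 CPM in the DI of 13, again with all 36 in the same state. LOC106610272, LOC106597139, ENSSSAG00000112103 and ENSSSAG00000098110 completed the 8 members with the highest correlations. The split was less clear for LOC106597139, which lay between 1 and 5 CPM in 8 DI and 12 spleen libraries. Over these 8 the correlation lay between 0.970 and 0.997 (rho between 0.950 and 0.987), and without the 2 fish farthest from the median between 0.962 and 0.999. Each had a permutation p of 1e-05, the smallest that 100000 resamples can give, and an adjusted p of 0.000653.

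**Figure D4:**
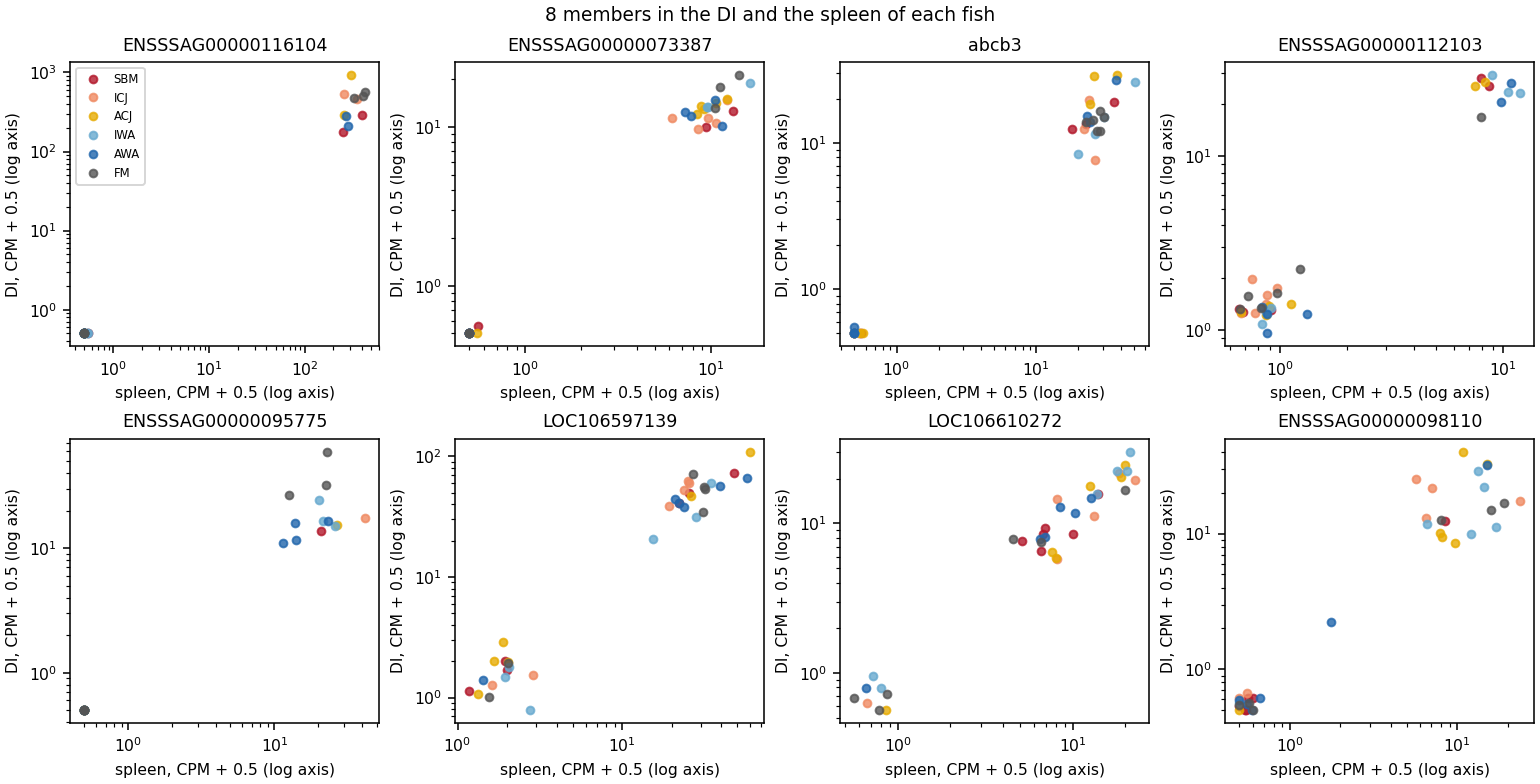
CPM + 0.5 in the DI (vertical, log axis) against the spleen (horizontal, log axis) of 36 fish, coloured by diet, for the 8 members with the highest correlation between the tissues. Each panel shows a low cloud and a high cloud with fish of several diets in both; for abcb3 they hold 14 and 22 fish, and no fish is low in one tissue and high in the other.

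Counting as off a value under 1 CPM and as on a value of 5 CPM or more, 45 members had at least 3 fish in each state in each tissue, and 16 of them belonged to no group of 5 or more. For these 16, 479 pairs of a gene and a fish were clear in both tissues, and in 468 the state was the same. In 12 of the 16 genes no fish differed (0 pairs). The rest of the 45 belonged to groups and agreed to unlike degrees. In group 3, cac3 had 7 fish in the same state and 17 in the other. In group 1, LOC106612462 had 9 and 11, and ENSSSAG00000112894 had 25 and 2. LOC106601682 of group 6 had 21 and 4. The states of the 16 genes outside the groups also tied a DI library to the spleen library of its own fish. For 33 of 36 the own spleen library shared more states than any other, and for the other 3 it was tied with another. Of the 46 genes in no group, 30.4% lay on unplaced scaffolds, against 2.46% of the eligible genes.

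Diet was compared in the DI by edgeR's quasi-likelihood test over 32157 genes in one fit of the 36 libraries. The choice of the members used the FM libraries through the limit of 20 CPM and all diets through the mean of 5 CPM. The counts below are therefore not independent of this choice. In AWA against FM, 6 of the 200 members were called at an adjusted p under 0.05 (3%), 2 higher and 4 lower, while 3.41% of all genes tested were called. By edgeR the members were thus called about as often as genes in general. DESeq2, in contrast, called 54 of 197 members in AWA against FM (27.4%), 4 higher and 50 lower, against 7.95% of all genes tested. At an unadjusted p under 0.05 edgeR had 45.5% of the members and 24.2% of all genes in this comparison. In the others the edgeR test called 0 of the 200, against 0.0187% of all genes in SBM, 0.0466% in ICJ, 0.00311% in ACJ and 0.308% in IWA. At an unadjusted p under 0.05 there were 45 members in SBM (22.5%, against 8.84% of all genes), 16 in ICJ (8%, against 13% of all genes), 13 in ACJ (6.5%, against 4.52%) and 34 in IWA (17%, against 18.7%). DESeq2 called 3 members in SBM (1.52%, against 0.492% of all genes), 3 in ICJ (1.52%, against 0.927%), 2 in ACJ (1.02%, against 0.144%) and 8 in IWA (4.06%, against 2.98%). The median log2 fold change of the members was -2.13 in AWA against FM and that of all genes -0.08. In this comparison all 45 genes of group 2 and all 41 of group 3 had fitted values below 0. Members of a group rose and fell together from fish to fish, so the shares of members above are not shares of independent genes.

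The counts changed with single libraries. Without ICJ replicate 4, edgeR called 14 members in AWA against FM (7%, against 6.42% of all genes), and without AWA replicate 1 none (0, against 0.633% of all genes), which are the highest and the lowest count of members with 1 library left out. In the spleen, edgeR called no gene at all on any diet against FM (0 of 150 members and 0% of 32144 genes tested), and at an unadjusted p under 0.05 it had 6 members in SBM (4%, against 7.95% of all genes), 7 in ICJ (4.67%, against 6.51%), 5 in ACJ (3.33%, against 8.13%), 9 in IWA (6%, against 5.95%) and 18 in AWA (12%, against 9.20%). DESeq2 called 1 of 150 members in the spleen of AWA against FM (0.667%, against 0.077% of all genes) and none (0) on the other diets, where it called 0.0435% of all genes in SBM, 0.031% in ICJ, 0.00944% in ACJ and 0.00755% in IWA.

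Of the 6 called members, 3 belonged to group 2, and each was lower in AWA. clic5a, a chloride intracellular channel gene, had a lowest, median and highest value of 0.792, 2.58 and 17.1 CPM in AWA fish, against 16.9, 55.0 and 256 CPM in FM fish. The groups met only at the edge, where the highest AWA fish passed the lowest FM fish. Its log2 fold change was -4.46 ± 1.24 (SE; edgeR adjusted p = 0.0410, 6 fish per diet), and the call was lost in 9 of the 36 runs with 1 library left out. For LOC106607694 the values were 0.691, 1.06 and 5.20 CPM in AWA fish and 5.57, 31.3 and 177 CPM in FM fish, without overlap, and the log2 fold change was -4.92 ± 1.33 (SE; edgeR adjusted p = 0.0378), lost in 9 of these runs.

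LOC106565093 had 0 to 0.918 CPM in AWA fish with a median of 0.0177 CPM, and 0.277 to 7411 CPM in FM fish with a median of 5.96 CPM. The ranges overlapped, and the fitted log2 fold change was -13.26 ± 3.71 (SE; edgeR adjusted p = 0.0421). It lay between -16.02 and -9.82 with 1 library left out, the smallest change without FM replicate 5, and the call was lost in 10 of the 36 runs. On the other diets its log2 fold change was -5.53 (SBM), -3.94 (ICJ), -4.85 (ACJ) and -6.77 (IWA), without a call.

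The fitted fold changes of group 2 were mostly below 0 on every diet with soybean. Below 0 were 44 of its 45 genes in SBM (median log2 fold change -2.49), 44 in ICJ (-1.15), 41 in ACJ (-1.06), 45 in IWA (-2.02) and 45 in AWA (-3.69). Over all genes tested, the median log2 fold change lay between -0.08 (AWA) and 0.004 (ICJ). The level of group 2 was 43.0, 102 and 151 CPM in FM replicates 1, 4 and 5. It was 1.42 to 1.67 CPM in FM replicates 2, 3 and 6. In group 3 the sign of the fitted values differed between the diets. All 41 genes were above 0 in SBM (median 3.71) and in ACJ (median 2.26), and all 41 were below 0 in ICJ (median -1.45), IWA (median -3.31) and AWA (median -7.26). The genes of a group rose and fell together from fish to fish, so these counts of genes are not counts of independent results. The median level of group 3 went the other way in ICJ. It was 3.11 CPM in ICJ fish (without replicate 4) and 0.229 CPM in FM fish, with all 41 fitted values below 0. In AWA and IWA fish the median level was 0.142 and 0.139 CPM, close to that of FM fish. FM replicate 1 stood at 53.5 CPM and FM replicate 5 at 3.40 CPM, with the other FM fish at 0.276 CPM or less. In SBM fish the median was 1.60 CPM, with 584 CPM in replicate 5 and 119 CPM in replicate 3. The part of these few high fish in the fitted values was not tested. The 5 comparisons share the FM fish. Of these genes, the 3 of group 2 in AWA passed the edgeR test and none of group 3 did on any diet (0 of 41).

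LOC106565393 of group 5 was higher in AWA, with 2.01, 17.9 and 91.3 CPM as the lowest, median and highest value in AWA fish, against 0.0574, 0.458 and 1.05 CPM in FM fish, without overlap. Its log2 fold change was 5.95 ± 1.49 (SE; edgeR adjusted p = 0.0274), and 5 of the 36 runs lost the call. On the other diets it was 4.19 (ACJ) to 6.07 (ICJ), without a call. ENSSSAG00000094443 had 0.115 to 103 CPM in AWA fish with a median of 26.7 CPM, and 0.0574 to 0.937 CPM in FM fish with a median of 0.180 CPM. In this gene 2 AWA fish were within the FM range and the other 4 far above it, with a log2 fold change of 6.95 ± 1.97 (SE; edgeR adjusted p = 0.0441) that lost its call in 17 of the 36 runs. On the other diets with soybean the log2 fold change was 6.57 (SBM), 6.84 (ICJ), 6.20 (ACJ) and 7.24 (IWA), without a call. Above 5 CPM were 4 SBM, 3 ICJ, 3 ACJ, 4 IWA and 4 AWA fish and no FM fish (0 of 6). With FM fish at most at 1.05 CPM (LOC106565393) and 0.937 CPM (ENSSSAG00000094443), both genes met the mean of 5 CPM only through fish fed soybean. Their calls against FM and this count of fish are therefore not independent of the choice. ENSSSAG00000121446 of group 1 was lower in AWA, with 0 to 0.849 CPM in AWA fish and 0.0978 to 401 CPM in FM fish, but its fold change of -8.35 ± 2.24 on the log2 scale (SE; edgeR adjusted p = 0.0365) came from FM replicate 1 at 401 CPM, and without that library the adjusted p was 0.437.

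**Figure D5:**
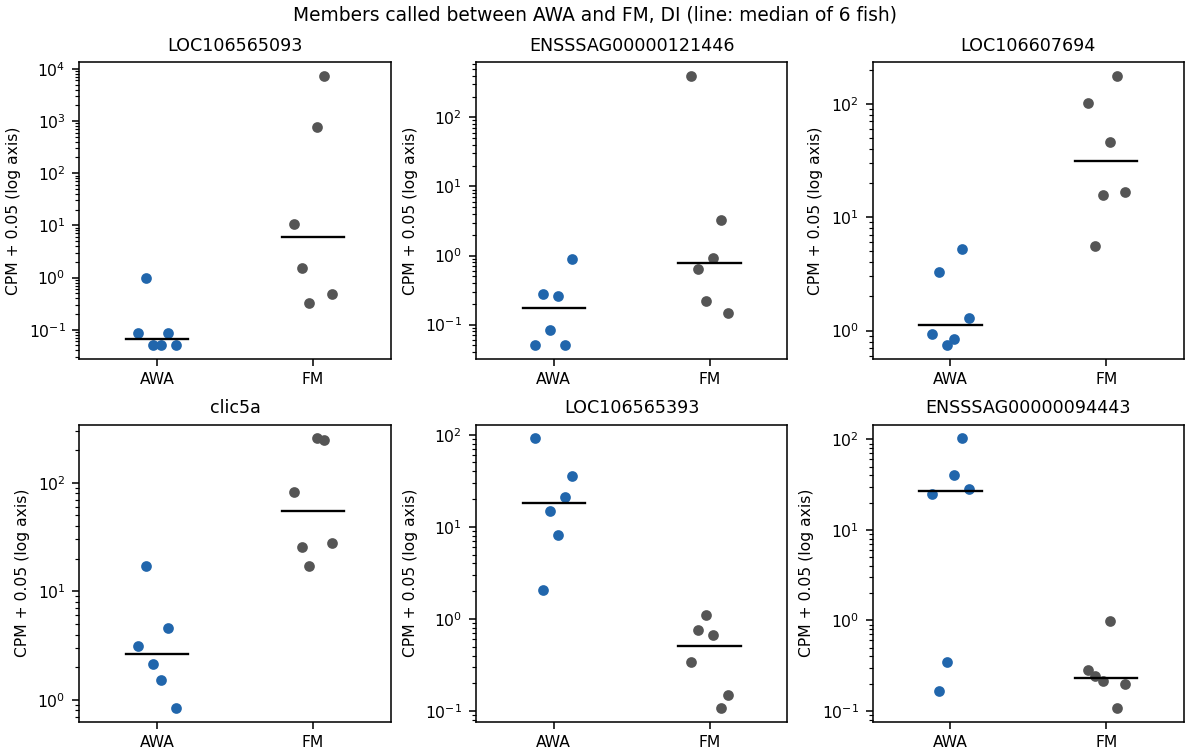
CPM + 0.05 (log axis) of the 6 members called between AWA and FM in the DI of each fish, with black lines at the median of 6 fish. The AWA and FM fish do not overlap for LOC106607694 and LOC106565393, and a single FM fish at 401 CPM stands far above the rest for ENSSSAG00000121446.

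The spread between fish was present on every diet. The median SD of the 200 genes within a diet was 2.27 in SBM fish, 2.54 in ICJ, 2.19 in ACJ, 1.81 in IWA, 1.47 in AWA and 2.40 in FM fish, and over all eligible genes the medians were between 0.236 (AWA) and 0.436 (FM). With tanks inferred from runs of fish numbers, which the labels do not give, a median of 25.1% of a member's residual sum of squares lay between tanks of the same diet, against 33.1% over all eligible genes. The share was 40.5% in group 1, 17.6% in group 2, 23.0% in group 3 and 41.4% for the genes of no group. With 3 tanks of 2 fish per diet, such a share is well above 0 even where tanks do not differ. These shares alone therefore do not show a difference between tanks, which was not tested.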

How the data were processed

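RNA-seq covered 36 fish with 1 DI and 1 spleen library each. According to the methods, libraries were prepared with a stranded mRNA kit, Trim Galore trimmed the reads, and STAR with RSEM aligned them to the Ssal_v3.1 genome. Fragments were counted with featureCounts, for which the labels and the methods give version 1.4.6 and the table headers another version, and by the command in the headers those that fit several places were not counted. The values deposited by the authors are raw counts per gene, without normalization, from 6976621 to 35187924 fragments per library. Each count is limited by this depth, and the members had a median of 16699 counts (the lowest 3080) summed over the DI libraries of the choice. The authors' counts for every sample are in 1 table each, and 0 further columns were used.

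The 200 members and the lists were chosen with earlier results of these data known. CPM was the count divided by the library total. Gene symbols came from the RefSeq annotation of Ssal_v3.1 for genes whose span overlapped by at least 50% in both directions: 34337 of 69389 were paired, 8821 with a symbol that is no LOC number. Named genes were the 10 with the largest SD, up to 4 with a symbol or product name in each group of 5 or more, the 8 with the largest correlation between the tissues among those called, those called between a diet and FM, and those at the limit. A gene or library beyond this rule, such as LOC123730958, prss59, ENSSSAG00000085416 or the C regions, was named after its values were seen.

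Diets were compared with FM by edgeR 4.0.16 (TMM scaling, default filter, robust quasi-likelihood test) in one fit of the 36 libraries of a tissue, with Benjamini-Hochberg adjustment over all genes tested and a threshold of 0.05. The correlation of DI and spleen was tested by permuting fish within diets, two-sided, with 100000 resamples, which stopped after 5000 where p was above 0.1. Both tests were tried on simulated data. Alternatives were DESeq2 1.42.0, RLE size factors, all genes with any count, the 12 libraries compared only, the replicate number as a block, other pseudocounts and limits, Spearman correlation, and each library left out. Same-numbered DI samples of different diets deviated together with a median correlation of 0.00 (-0.49 to 0.54 over 90 pairs), so the number pairs no samples. Computations used Python 3.11.15 and R 4.3.3.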

Additional observations from a re-analysis of the deposited data

Results flagged for a closer look

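Within each diet, the levels of the 6 groups in the DI were searched for a fish far from the other fish of its diet, in 36 sets of 5 or 6 fish. In 3 of them the gap of an extreme fish to the next, divided by the whole range, both on the scale of log2(level + 0.5), passed Dixon's 95% limit (0.625 for 6 fish, 0.710 for 5), where chance flags about 1 in 20.

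The level of group 3, the digestive enzymes, was 0.285 CPM in AWA replicate 6 (ratio 0.633). In the other 5 AWA fish it was within 0.0989 and 0.161 CPM. These AWA levels of group 3 all lay near the floor, since a count of 0 allows 0.0972 to 0.430 CPM depending on depth. The same group was at 5.17 CPM in IWA replicate 2, against at most 0.688 CPM in the other IWA fish (ratio 0.692). Group 6, with the V segment LOC106601682, was at 20.8 CPM in the same fish, IWA replicate 2, against at most 1.67 CPM in the other IWA fish (ratio 0.628). In the spleen of IWA replicate 2, group 6 was at 103 CPM, also the highest of its diet, and group 3 at 5.73 CPM.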

How the results depend on the processing

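Of the 200 members, 179 were shared with a pseudocount of 0.1, 171 with 2, 193 with TMM-scaled CPM and 149 when the median absolute deviation replaced the SD, and 185 to 198 when 1 library was left out. The correlation of DI and spleen called 51 members, 49 to 55 when 1 fish was left out, and 44 of the 51 kept the call in each of these runs. Over all genes it called 925 to 1110 when 1 fish was left out, and 443 genes with a mean of 5 CPM in each tissue, where fewer genes were tested. The cut of the groups gave 7 groups of 5 or more at 0.4 and 6 at 0.6, where groups 1 and 3 merged.

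The comparisons with FM were less stable. With DESeq2, the members called in the DI were 3 (SBM), 3 (ICJ), 2 (ACJ), 8 (IWA) and 54 (AWA), and the genes called 170, 339, 54, 1030 and 2666. In the spleen, where DESeq2 was added after the data were seen, it called 15, 11, 5, 4 and 25 genes and 1 member (AWA). With only the 12 libraries compared, the genes called were 0 (ICJ), 0 (ACJ), 426 (IWA) and 3090 (AWA). The members called were 1 of 157 tested in IWA (0.637%, against 1.44% of all genes) and 10 of 144 in AWA (6.94%, against 10.6%). Without a filter beyond a count above 0, 12 genes (IWA) and 452 genes (AWA) were called. They included 0 members in AWA, against 0.847% of all genes. With the replicate number as a block, which pairs no samples, the genes were 0 (ICJ), 5 (IWA) and 566 (AWA). The members were then 2 of 200 in AWA (1%, against 1.76% of all genes). Leaving out 1 library gave 0 to 13 genes in SBM, 0 to 402 in ICJ, 1 to 5 in ACJ, 0 to 604 in IWA and 206 to 2083 in AWA, and 0 to 1 members in ICJ and IWA and 0 to 14 in AWA. No alternative run turned the direction of the 6 members called in AWA, but each lost its call without AWA replicate 1 and without FM replicate 1. The cause of these changes was not tested.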
